A study of Mus musculus with 12 samples.

Results

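The genes described here are 3 secretoglobins, Scgb1a1, Scgb3a1 and Scgb3a2, and 5 enzymes of the airway club cell, Cyp2f2, Cbr2, Ces1d, Aldh1a1 and Gstm2. They were taken by symbol from a count table of 30743 genes, and all 8 were found. They were followed through 12 RNA-seq libraries of cancer cells sorted from mouse lung tumours, to ask how the level of each differed when Lkb1 was deleted or Sik genes were targeted. The tumours came from mice of mixed BL6/129 strain, and every group carries the background that the labels call KT and do not spell out. The reference group was KT (4 libraries). The group KT;Lkb1f/f (3 libraries) carries floxed alleles of Lkb1, the kinase encoded by Stk11, and is called Lkb1-deleted below. The remaining 5 libraries carry H11LSL-Cas9, a Cre-dependent Cas9 allele, with guides titled sgSik1 (3 libraries) or sgSik1-3 (2 libraries), and share 1 genotype label; together they are called Sik-targeted. Salt-inducible kinases, encoded by Sik1, Sik2 and Sik3, are activated by Lkb1. The titles of the KT and Lkb1-deleted libraries name no Cas9 allele and no guide. Against either group, the targeting of Sik genes therefore cannot be told apart from Cas9 or from carrying a guide. The genes that sgSik1-3 targets, the promoter behind Cre and the guide sequences were not analysed here. Other names in the labels mention lentiviral Cre for KT replicates 2 to 4 and not for replicate 1. Before sorting, cells bearing CD45, CD31, F4/80 or Ter119 were excluded. Nothing in the titles states that libraries of a group are separate animals, so the p-values rest on differences between libraries that could be technical.

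Club cells are secretory cells that line the conducting airways. They release secretoglobins, small proteins held together by disulphide bonds, into the airway fluid, and they carry enzymes of the endoplasmic reticulum and cytosol that oxidise, reduce and conjugate inhaled chemicals and lipids. Scgb1a1 is the classical marker of the cell, while several of the enzymes are also made by alveolar type 2 (AT2) cells, the surfactant-secreting cells of the alveolus. NKX2-1, FOXA and C/EBP proteins are transcription factors known to act at genes of lung secretory cells.

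Because 7 of the 8 genes were lower in one or both altered groups, the bases upstream of members are shown for those with a RefSeq promoter window (GRCm38.p6). Windows of 250 bases before and 50 after the start were found for 5 of the 8 genes. The 3 printed here are cut to the bases upstream of both the RefSeq and the GENCODE start, read 5′ to 3′ on the strand of the gene. Capitals mark matches to the motifs searched. Scgb3a1 lies on the plus strand (chr11:49663345-49663594), Cyp2f2 on the plus strand (chr7:27119705-27119908) and Cbr2 on the minus strand (chr11:120732115-120732271).
Scgb3a1: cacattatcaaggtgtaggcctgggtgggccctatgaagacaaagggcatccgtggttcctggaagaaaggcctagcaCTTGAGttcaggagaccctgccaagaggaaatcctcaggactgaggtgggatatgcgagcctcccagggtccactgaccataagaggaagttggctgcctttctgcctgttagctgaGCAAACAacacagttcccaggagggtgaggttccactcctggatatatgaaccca
Cyp2f2: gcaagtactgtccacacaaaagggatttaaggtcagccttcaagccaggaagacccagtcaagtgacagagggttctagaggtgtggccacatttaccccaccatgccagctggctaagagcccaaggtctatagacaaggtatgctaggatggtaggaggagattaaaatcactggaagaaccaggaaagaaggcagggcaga
Cbr2: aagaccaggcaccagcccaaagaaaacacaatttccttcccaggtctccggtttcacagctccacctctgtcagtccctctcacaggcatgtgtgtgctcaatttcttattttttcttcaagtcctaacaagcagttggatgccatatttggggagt
The letters searched, on both strands, were CTCAAG for NKX2-1, TGTTTAC or TGTTTGC for FOXA, TTGCNNAA for C/EBP and TGACG for a cAMP response element. In the window of Scgb3a1, NKX2-1 letters began at position -172 and FOXA letters at position -55 relative to the RefSeq start, both on the opposite strand. C/EBP letters were found in Gstm2 at position -42 and in 1 of the 2 windows of Aldh1a1 at position -13. The windows of Cyp2f2 and Cbr2 held none of these letters, and TGACG was in none of the 6 windows. Among all 32817 windows of this length, 15.9% held the NKX2-1 letters, 8.47% the FOXA letters, 10.8% the C/EBP letters and 20.8% TGACG. A match describes the sequence and does not show that a factor binds there.

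Total counts ran from 3847760 to 13955181 per library, and levels are given as CPM, counts relative to library sizes scaled by the trimmed mean of M values, with scaling factors from 0.394 to 1.87. KT replicates 2 and 3 stood apart, with 23582 and 23747 genes detected against 14283 to 16533 in the other libraries, and with 998 and 1063 olfactory or vomeronasal receptor genes detected against 14 to 58. The 4 most counted genes took from 18.4% to 74.2% of the counts, the highest share in sgSik1 replicate 1. Y-linked genes summed to 70.6 and 50 CPM in Lkb1-deleted replicates 2 and 3 and to 70.4 and 49.2 CPM in the 2 sgSik1-3 libraries, and to at most 1.71 CPM elsewhere, so sex was not balanced between groups. Stk11 ran from 9.23 to 16.6 CPM in the Lkb1-deleted libraries and from 31.0 to 44.7 CPM in KT, which matches the label. Sik1 was not low in sgSik1 libraries (112 to 514 CPM, against 38.2 to 59.6 in KT). A guide-made edit need not lower the transcript, so the Sik1 level does not check the label. Sik3 was at 9.17 to 21.0 CPM in sgSik1, at 8.74 and 11.9 in sgSik1-3 and at 26.9 to 46.7 in KT. Sik2 went the other way, with 12.7 to 28.1 CPM in sgSik1, 17.5 and 18.1 in sgSik1-3 and 4.72 to 10.4 in KT. The cause of these differences was not tested.

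Per kilobase of merged exons, Scgb1a1 was the most abundant of the 8 genes in KT, with 2130 ± 2605 CPM per kb (SD, n = 4), followed by Cbr2 with 420 ± 259. A middle group followed whose means differed by less than their spread: Scgb3a1 had 48.8 ± 75.5, Ces1d 39.5 ± 10.6 and Cyp2f2 33.1 ± 23.6 CPM per kb. Scgb3a2 (10.9 ± 11.3), Aldh1a1 (9.92 ± 4.32) and Gstm2 (2.24 ± 1.66) had the lowest levels per kb. Together the 8 genes took 0.131% to 0.705% of all counts in KT, 0.00685% to 0.0302% in the Lkb1-deleted libraries and 0.00246% to 0.0107% in the Sik-targeted libraries, and these ranges did not overlap between KT and the other groups. KT replicate 1 had the highest level of each of the 8 genes among the KT libraries. The share of all genes highest in that library was not counted. Of the marker lists described below, the AT2, ciliated and goblet sums were also highest there among KT libraries (103064, 87.6 and 207 CPM). The AT1, basal, macrophage, leukocyte, endothelial and fibroblast sums were highest in other KT libraries. In bulk RNA of this kind, fewer cells of a type and less RNA per cell cannot be told apart.

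**Figure D1:**
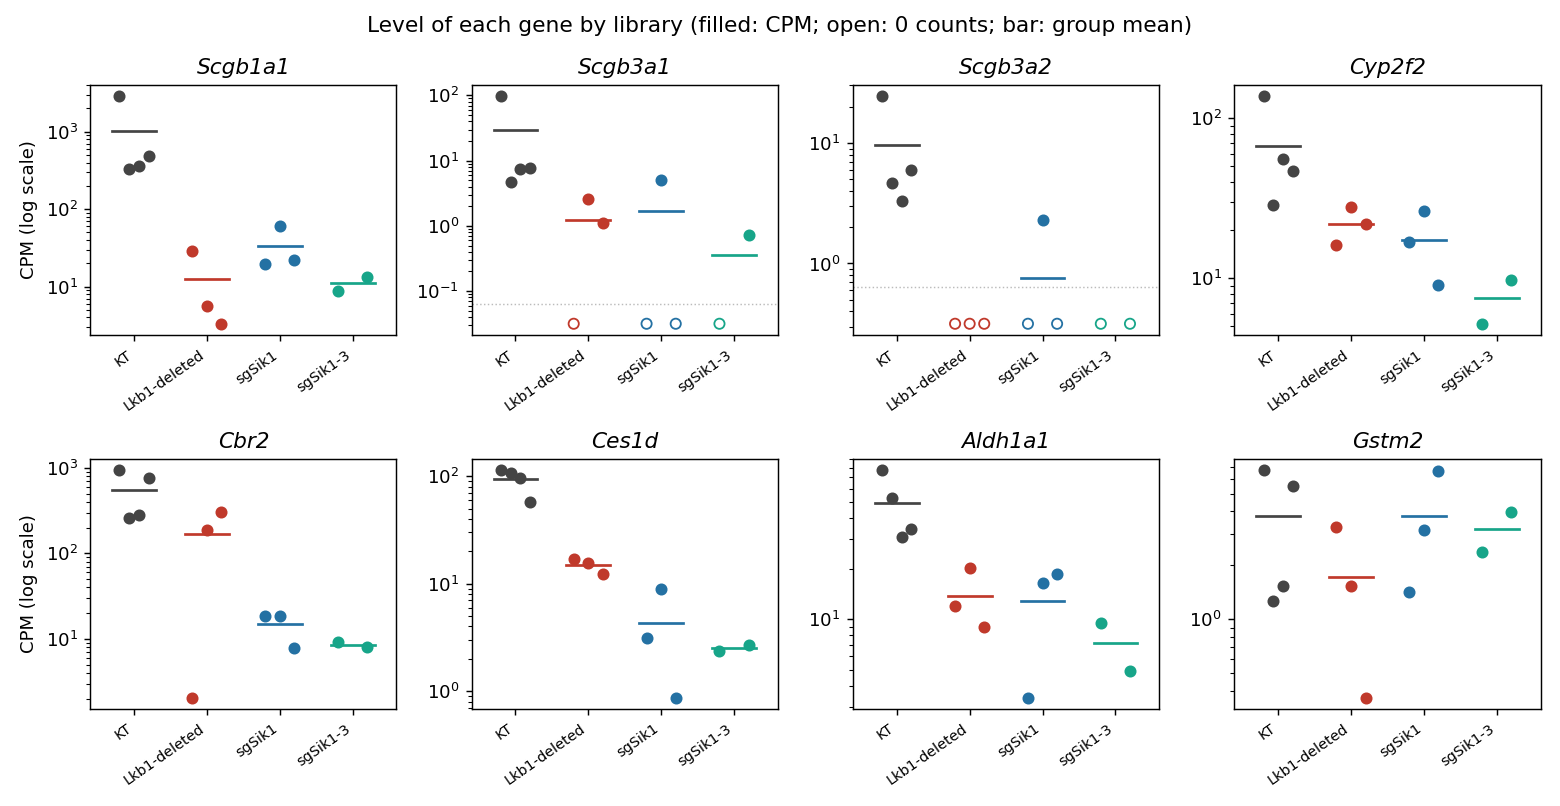
Level of each of the 8 genes in each library, in CPM on a log axis; each point is 1 library, open circles below the dotted line are libraries with 0 counts, and the bar is the group mean. All Lkb1-deleted and Sik-targeted libraries lie below all KT libraries for Scgb1a1, Scgb3a2, Cyp2f2, Ces1d and Aldh1a1, while Gstm2 overlaps between all groups.

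Scgb1a1 (chr19:9083636-9087958, minus strand, 3 merged exons) encodes uteroglobin, the main secreted protein of the club cell. It was at 2871, 334, 362 and 489 CPM in KT replicates 1 to 4. In the Lkb1-deleted libraries it was at 28.4, 5.66 and 3.31 CPM, in sgSik1 at 19.3, 59.8 and 21.9 CPM and in sgSik1-3 at 8.74 and 13.4 CPM. KT replicate 1 was far above the other KT libraries, and every altered library was below every KT library. The gene fell by 6.34 on the log2 scale in Lkb1-deleted tumours (SE 1.16), which is 80.9-fold, with an adjusted p of 0.0273 by edgeR's quasi-likelihood test with Benjamini-Hochberg adjustment over all 13575 tested genes. It fell by 5.36 (SE 0.88), or 41.0-fold, in Sik-targeted tumours, with an adjusted p of 0.00346 in the same edgeR fit. The size depended on KT replicate 1, without which the changes were 31.7-fold with Lkb1 deleted (edgeR adjusted p = 0.0415) and 16.1-fold with Sik genes targeted (adjusted p = 0.008). In the other direction, the first was 222-fold without Lkb1-deleted replicate 1 and the second 63.6-fold without sgSik1 replicate 2. With Lkb1 deleted the call held in 17 of 22 alternative analyses. It was lost without KT replicate 3 (adjusted p = 0.0512), without Lkb1-deleted replicate 2 (0.0645) or 3 (0.0595), without KT replicates 2 and 3 together (0.0922) and with these 2 groups fitted alone (0.0667).

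Scgb3a1 (chr11:49663610-49665118, plus strand, 4 merged exons) encodes a secretoglobin of the larger airways. Its level was 96.9, 4.77, 7.47 and 7.64 CPM in the KT libraries. It was 0, 2.57 and 1.10 CPM in the Lkb1-deleted libraries, 0, 5.12 and 0 CPM in sgSik1 and 0 and 0.724 CPM in sgSik1-3. The Lkb1-deleted libraries were all below KT, whereas sgSik1 replicate 2 was above KT replicate 2. It fell in Sik-targeted tumours (log2 change -4.56, SE 1.34, edgeR adjusted p = 0.0403) and did not pass with Lkb1 deleted (log2 change -4.52, SE 1.64, adjusted p = 0.229). The Sik-targeted call held in 11 of 21 alternative analyses that gave an adjusted p, and DESeq2 gave none. It was lost without KT replicate 1 (log2 change -2.44, edgeR adjusted p = 0.225), KT replicate 2 (0.0583) or 3 (0.0591), sgSik1 replicate 1 (0.0963) or 3 (0.0714) or either sgSik1-3 library (0.0836 and 0.0868). The call was also lost with 4 title groups in the fit (edgeR adjusted p = 0.0557) and without KT replicates 2 and 3 together (0.104). Leaving out Lkb1-deleted replicate 1 and sgSik1 replicate 1 together lost it as well (0.0735). Without sgSik1 replicate 2, the library above KT replicate 2, the log2 change was -7.48 (adjusted p = 0.00933).

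Scgb3a2 (chr18:43764289-43767399, plus strand, 2 merged exons) encodes a further secretoglobin of bronchiolar cells. It was at 24.4, 4.62, 3.29 and 5.94 CPM in KT, 286 counts in all. No count was seen in the 3 Lkb1-deleted libraries or the 2 sgSik1-3 libraries, nor in sgSik1 replicates 1 and 3; sgSik1 replicate 2 had 2.28 CPM, 16 counts. With a floor of 3 counts over a group, the level was at least 60.4-fold lower in Lkb1-deleted and at least 25.2-fold lower in sgSik1-3 than in KT; the floor covers counting error only. KT replicate 1 held 155 of the KT counts, and without it these bounds were 33.4-fold and 13.9-fold. The edgeR adjusted p was 0.0714 for Lkb1 deletion, which did not pass, and 0.0345 for Sik targeting, where the gene fell by 4.26 (SE 1.18). The Sik-targeted call held in 11 of 22 alternative analyses. It was lost with DESeq2 (adjusted p = 0.168), without any 1 of the KT libraries (edgeR adjusted p 0.124, 0.0666, 0.0565 and 0.0522 for replicates 1 to 4, with a log2 change of -3.23 without replicate 1), without sgSik1 replicate 1 (0.087) or 3 (0.0609) and without either sgSik1-3 library (0.0732 and 0.0734). The call was also lost without KT replicates 2 and 3 together (edgeR adjusted p = 0.122). Leaving out Lkb1-deleted replicate 1 and sgSik1 replicate 1 together lost it as well (0.0586). Without sgSik1 replicate 2 the Sik-targeted group has 0 counts, so the size of -4.26 rests on that library.

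Cyp2f2 (chr7:27119909-27133660, plus strand, 11 merged exons) encodes the cytochrome P450 that activates naphthalene in mouse club cells. It was at 137, 28.7, 55.4 and 47.1 CPM in KT, at 16.2, 28.0 and 21.7 CPM in Lkb1-deleted, at 16.8, 26.2 and 9.06 CPM in sgSik1, and 5.20 and 9.77 CPM in sgSik1-3. The highest Lkb1-deleted library was just under the lowest KT library. The gene fell by 2.32 (SE 0.49), or 4.99-fold, in Sik-targeted tumours with an edgeR adjusted p of 0.0092, and 3.29-fold without KT replicate 1 (adjusted p = 0.0373). With Lkb1 deleted the log2 change was -1.61 (SE 0.57, adjusted p = 0.208). An antisense gene, Gm15883, overlaps Cyp2f2, and the strand setting of the counting is not given in the sources used here, so its reads cannot be told apart from those of Cyp2f2.

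Cbr2 (chr11:120729489-120732114, minus strand, 8 merged exons) encodes lung carbonyl reductase, a mitochondrial enzyme. Among groups with counts in every library, it had the largest ratio of highest to lowest library of the 8 genes, 149 in Lkb1-deleted. KT had 941, 256, 280 and 753 CPM, sgSik1 had 18.5, 18.4 and 7.91 CPM and sgSik1-3 had 9.21 and 7.96 CPM. The Lkb1-deleted libraries had 2.07, 190 and 308 CPM, so that replicate 1 was below every Sik-targeted library and replicate 3 was within the KT range. The gene fell by 5.50 (SE 0.93), or 45.2-fold, in Sik-targeted tumours with an edgeR adjusted p of 0.00411. With Lkb1 deleted the log2 change was -1.74 (SE 0.96, adjusted p = 0.477). Scgb1a1 exceeded Cbr2 per kb 1.81- to 8.50-fold in the KT libraries and 2.64- to 9.08-fold in the Sik-targeted libraries. In Lkb1-deleted replicates 2 and 3 the ratio of Scgb1a1 to Cbr2 per kb was 0.083 and 0.0299, and in replicate 1 it was 38.4.

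Ces1d (chr8:93166068-93197838, minus strand, 14 merged exons) encodes a carboxylesterase that cleaves ester and lipid substrates. It was at 114, 107, 95.5 and 57.9 CPM in KT, at 16.9, 15.5 and 12.3 CPM in Lkb1-deleted, at 3.13, 8.83 and 0.873 CPM in sgSik1, and 2.36 and 2.71 CPM in sgSik1-3. The 3 levels did not overlap: every Lkb1-deleted library was below every KT library and above every Sik-targeted library. Ces1d fell by 2.65 (SE 0.57), or 6.27-fold, with Lkb1 deleted, with an edgeR adjusted p of 0.0408. It fell by 4.71 (SE 0.52), or 26.2-fold, with Sik genes targeted, with an edgeR adjusted p of 0.000365, and 43.6-fold without sgSik1 replicate 2. The call with Lkb1 deleted held in 12 of 22 alternative analyses. Among others, it was lost without KT replicates 2 and 3 together (adjusted p = 0.369), without Lkb1-deleted replicate 1 and sgSik1 replicate 1 together (0.0779), without any 1 of KT replicates 1, 2 and 3 (adjusted p 0.113, 0.128 and 0.12), any 1 of the Lkb1-deleted libraries (0.0835, 0.106 and 0.115) or sgSik1-3 replicate 2 (0.0625). The Ces1 genes form a cluster of close copies, and Ces1e, its neighbour in that family, was at 4.58 ± 1.37 CPM in KT (SD, n = 4) and 0.0963 ± 0.186 CPM in Sik-targeted (n = 5); how reads shared between copies were counted is not given in the sources used here. Gm45909, a gene model on the same strand, overlaps Ces1d.

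Aldh1a1 (chr19:20492715-20643465, plus strand, 21 merged exons) encodes retinaldehyde dehydrogenase 1, which makes retinoic acid. It was at 77.4, 53.1, 30.8 and 34.6 CPM in KT, at 11.9, 20.2 and 9 CPM in Lkb1-deleted, at 3.41, 16.4 and 18.6 CPM in sgSik1, and 9.45 and 4.89 CPM in sgSik1-3. Every altered library was below every KT library. The gene fell by 2.19 (SE 0.47), or 4.56-fold, in Sik-targeted tumours with an edgeR adjusted p of 0.0108. With Lkb1 deleted the log2 change was -1.83 (SE 0.56, adjusted p = 0.141). Aldh1a7 is a near copy, and C730002L08Rik and Gm6684 overlap the gene on the other strand, so its counts are uncertain to that extent.

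Gstm2 (chr3:107981702-107986453, minus strand, 7 merged exons) encodes a glutathione S-transferase of the mu class, and it was the member that did not move in either comparison with KT by the test. It was at 6.77, 1.27, 1.53 and 5.52 CPM in KT, at 3.28, 1.54 and 0.367 CPM in Lkb1-deleted, at 1.42, 3.13 and 6.71 CPM in sgSik1, and 2.36 and 3.98 CPM in sgSik1-3. All 4 groups overlapped. The log2 change was -1.06 (SE 0.77, edgeR adjusted p = 0.62) with Lkb1 deleted and -0.03 (SE 0.66, edgeR adjusted p = 0.985) with Sik genes targeted. Gstm genes are close copies in 1 cluster, and at this depth (44 to 182 counts per genotype group) a change of the size of its SE could not be seen.

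Lkb1 deletion gave 2 called members of 8, Scgb1a1 and Ces1d, both lower, against 0.552% of all tested genes that fell and 0.611% that rose. All 8 members had negative log2 changes, as had 52.3% of all tested genes, and 6 of 8 had an unadjusted p under 0.05, against 13.1% of all tested genes. In 6 of 8 members, all but Cbr2 and Gstm2, every Lkb1-deleted library was below every KT library, against 8.3% of all tested genes. The median log2 change of the members was -2.24, and that of all tested genes was -0.04. Without KT replicates 2 and 3 no member passed in edgeR, and only 3 genes of the whole table did.

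Sik targeting gave 7 called members of 8, all lower and all but Gstm2, against 6.56% of all tested genes that fell and 5.81% that rose. Every Sik-targeted library was below every KT library for 6 of 8 members, all but Scgb3a1 and Gstm2, against 8.79% of all tested genes. The median log2 change of the members was -4.41, against -0.03 for all tested genes. Scgb1a1, Cyp2f2, Cbr2 and Ces1d passed in each of the 22 alternative analyses, which included leaving out each library in turn. Without KT replicates 2 and 3 these 4 members passed and Scgb3a1, Scgb3a2 and Aldh1a1 did not. Calls dropped over the whole table in that setting, to 98 genes, against 890 that fell and 789 that rose with all libraries. A call lost there, in the members or in the lists below, therefore does not by itself set a gene apart.

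**Figure D2:**
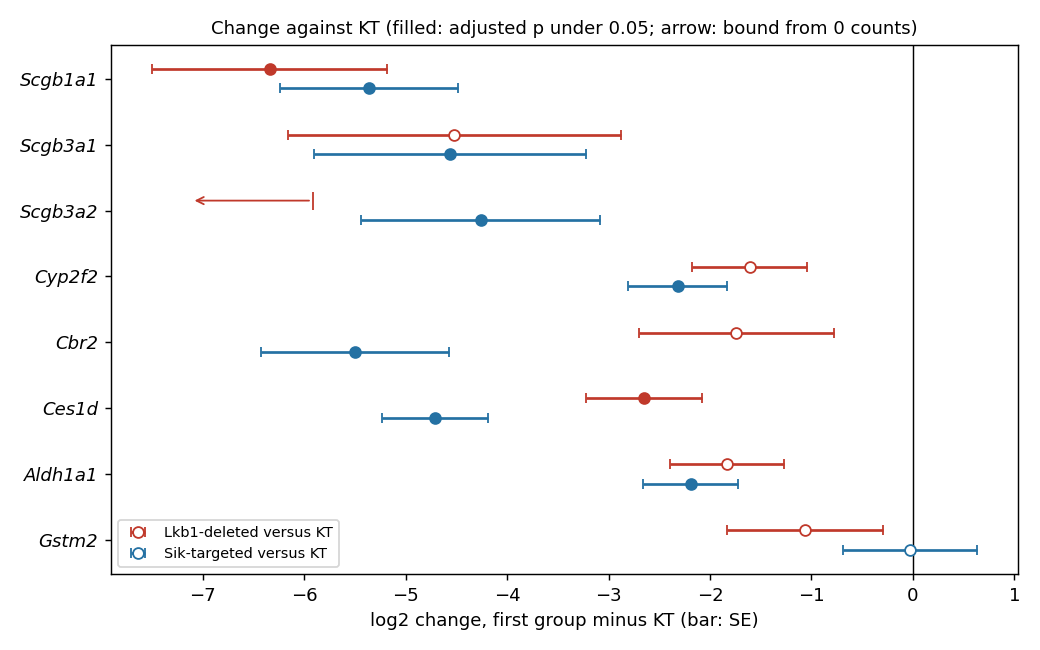
The log2 change against KT of each gene (horizontal axis; the bar is the SE) with Lkb1 deleted (red) and with Sik genes targeted (blue); filled points have an edgeR adjusted p under 0.05, and the arrow for Scgb3a2 starts at the bound that 0 counts allow. Among genes with counts in both groups, changes run from -6.34 for Scgb1a1 to -0.03 for Gstm2, and 7 filled blue points stand against 2 filled red points.

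The changes with Lkb1 deleted and with Sik genes targeted share the KT libraries, so they are given side by side and the difference was tested directly. In Lkb1-deleted against Sik-targeted tumours 0 of 8 members passed, against 0.221% of all tested genes in either direction; 2 members, Cbr2 and Ces1d, had an unadjusted p under 0.05, against 12.7% of all tested genes, and DESeq2 called them and 2.54% of all tested genes. Cbr2 had a log2 difference of 3.76 (SE 0.90, edgeR adjusted p = 0.113) and Ces1d 2.06 (SE 0.51, edgeR adjusted p = 0.121), both higher in Lkb1-deleted. Every Lkb1-deleted library was above every Sik-targeted library for Ces1d, as for 2.45% of all tested genes. Without Lkb1-deleted replicate 1 the difference for Cbr2 was 4.33 with an edgeR adjusted p of 0.000642, and without sgSik1 replicate 2 that for Ces1d was 2.80 with an adjusted p of 0.00391. Differences for Scgb1a1 (log2 difference -0.98, SE 0.88), Cyp2f2 (0.71, SE 0.52) and Aldh1a1 (0.36, SE 0.51) were within 2 SE of 0.

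**Figure D3:**
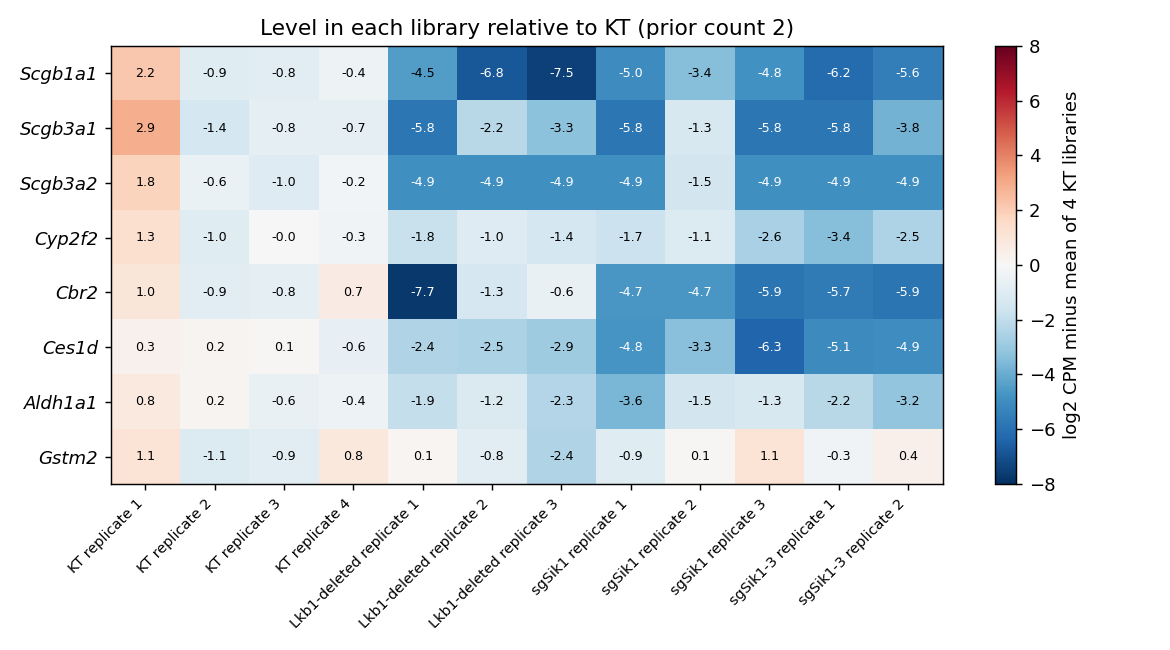
The log2 CPM of each gene (vertical axis) in each library (horizontal axis) minus the mean of the 4 KT libraries, with a prior count of 2 that bounds the value of libraries with 0 counts; blue is lower and red higher than KT. Lkb1-deleted replicate 1 is the darkest cell for Cbr2, while replicates 2 and 3 are pale there and dark for Scgb1a1; KT replicate 1 is redder than the other KT libraries for the 3 secretoglobins.

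The guide sets were also compared apart, in a fit of the 4 title groups (15303 genes). With sgSik1, 3 of 8 members fell against 1.13% of all genes: Scgb1a1 (log2 change -4.89, SE 1.05, edgeR adjusted p = 0.0252), Cbr2 (-5.22, SE 1.23, adjusted p = 0.0376) and Ces1d (-4.44, SE 0.63, adjusted p = 0.00219). With sgSik1-3, 4 of 8 fell against 1.15% of all genes: Scgb1a1 (-6.50, SE 1.38, edgeR adjusted p = 0.0302), Cyp2f2 (-3.14, SE 0.68, adjusted p = 0.0254), Ces1d (-5.17, SE 0.80, adjusted p = 0.0044) and Aldh1a1 (-2.76, SE 0.68, adjusted p = 0.0406). Cbr2 was as low there, at 8.59 ± 0.884 CPM (SD, n = 2), with a log2 change of -6.01 and an adjusted p of 0.0596. In both, 0 members passed without KT replicates 2 and 3, and 0 passed for sgSik1-3 without either of its own libraries. Leaving out 1 library moved the sgSik1 count to between 1 (without sgSik1 replicate 1 or 3) and 5 (without Lkb1-deleted replicate 1), and the sgSik1-3 count was 2 without KT replicate 3.

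Between sgSik1-3 and sgSik1 all 8 log2 differences were negative, as were 58.3% of those of all genes, and 0 of 8 passed in edgeR, as did 0% of all genes. At an unadjusted p under 0.05 there were 528 genes of the table and 0 members, and DESeq2 called 6 genes and 0 members. Scgb1a1 had the lower level in both sgSik1-3 libraries (8.74 and 13.4 CPM, against 19.3 to 59.8 in sgSik1), a separation also seen in 8.55% of all genes, and Cyp2f2, Cbr2, Ces1d, Aldh1a1 and Gstm2 overlapped. The SE of these differences ran from 0.64 for Cyp2f2 to 3.36 for Scgb3a2, so differences of that size could not be seen. Y-linked genes summed to 70.4 and 49.2 CPM in sgSik1-3, to at most 1.71 in sgSik1 and to at most 0.424 in KT. Guide set and sex therefore cannot be told apart for sgSik1-3 against either group.

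Other genes known from club cells were taken as a list of 28, 23 of which were tested, and their direction was mixed. With Sik genes targeted 8 of 23 fell and 2 rose (median log2 change -1.52), and with Lkb1 deleted 1 of 23 fell and 0 rose (median -0.89). Over all tested genes, 6.56% fell and 5.81% rose with Sik genes targeted, and 0.552% fell and 0.611% rose with Lkb1 deleted. The same shares stand beside the counts of the lists below. Cyp2a5, a cytochrome P450 of the airway, had 99 counts in KT, 0 in Lkb1-deleted (edgeR adjusted p = 0.0408) and 1 in Sik-targeted (adjusted p = 0.00703). It passed the low-count filter through KT, so a fall was close to the only outcome open to it. Sec14l3, a lipid-binding protein, fell from 144 ± 40.9 CPM in KT (SD, n = 4) to 13.8 ± 17.8 in Sik-targeted (n = 5), with an edgeR adjusted p of 0.0176. Cyp4b1, a further airway P450, was at 13.6 ± 2.46 CPM in KT, at 0.873 ± 1.26 in Sik-targeted (edgeR adjusted p = 0.0116) and at 1.19 ± 1.02 in Lkb1-deleted (adjusted p = 0.123). Cd24a, a surface glycoprotein of many epithelia, rose from 136 ± 36.7 to 826 ± 395 CPM with Sik genes targeted (edgeR adjusted p = 0.00606). The list also holds Muc5b and Tff2, which are in the goblet list as well. Without KT replicates 2 and 3, 0 of 21 tested genes of this list passed in either comparison.

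Enzymes of xenobiotic metabolism outside the 8 members moved in both directions. Of 38 tested, 6 fell and 6 rose with Sik genes targeted (median log2 change 0.39), and 0 passed with Lkb1 deleted (median 0.24). Among all tested genes 6.56% fell and 5.81% rose with Sik genes targeted. Ces1e fell by 5.23 with Sik genes targeted (SE 0.86, edgeR adjusted p = 0.00274). The glutathione transferases Gstt1 (log2 change -2.27, edgeR adjusted p = 0.0113) and Gsta3 (-2.48, adjusted p = 0.0133) fell there, and the flavin monooxygenase Fmo1 fell by 2.77 (adjusted p = 0.0145). Srxn1 (sulfiredoxin) and Aldh3a1 had log2 changes of 1.72 and 2.24 with Lkb1 deleted that did not pass (adjusted p = 0.0988 and 0.194). With KT replicates 2 and 3 left out, 1 of 39 tested genes of this list passed with Sik genes targeted.

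Transcription factors, Notch genes and CREB coactivators that bear on secretory cells formed a list of 31. Of 29 tested, 6 rose and 1 fell with Sik genes targeted (median log2 change 0.58), and 2 rose and 0 fell with Lkb1 deleted (median 0.54). Shares of all tested genes were 5.81% that rose and 6.56% that fell with Sik genes targeted, and 0.611% that rose with Lkb1 deleted. Klf5, an epithelial zinc finger factor, rose by 1.47 with Lkb1 deleted (SE 0.33, edgeR adjusted p = 0.0432) and by 1.63 with Sik genes targeted (SE 0.30, adjusted p = 0.005). Nfe2l2, which encodes the oxidant-response factor NRF2, was the other gene that rose with Lkb1 deleted, from 204 ± 68.8 CPM in KT to 609 ± 155 (SD, n = 3), with an edgeR adjusted p that rounds to 0.05. Sox9 and Elf3 rose by 4.89 and 2.36 with Sik genes targeted (edgeR adjusted p = 0.00652 and 0.00883), and Elf5, a factor of distal lung epithelium, fell by 1.85 (adjusted p = 0.0252). None of the 28 genes of this list tested without KT replicates 2 and 3 passed in either comparison.

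Markers of ciliated cells, macrophages and leukocytes were lower in the groups in which the members were lower. Ciliated cell markers, of cells that stand beside club cells in the airway, fell in 11 of 11 tested genes (12 were in the table) with Sik genes targeted (median log2 change -4.55) and in 3 of 11 with Lkb1 deleted (median -3.63). Their summed level ran from 47.1 to 87.6 CPM in KT, from 4.5 to 24.6 in Lkb1-deleted, from 0.928 to 10.1 in sgSik1 and from 1.65 to 2.17 in sgSik1-3. Dnahc5, an axonemal dynein, and Ccdc113 were at 0 in every Lkb1-deleted library, and 8 of the 12 genes, among them Foxj1, the ciliogenesis factor, were at 0 in both sgSik1-3 libraries. Cells bearing CD45 or F4/80 had been excluded, as stated above. Macrophage markers fell in 7 of 10 tested genes with Sik genes targeted and 5 of 10 with Lkb1 deleted (medians -5.28 and -4.90). Their sum ran from 96.1 to 1163 CPM in KT, from 13.9 to 15.8 in Lkb1-deleted and from 19.2 to 31.1 in Sik-targeted, and Siglec5 was at 0 in every altered library. Of 2 tested leukocyte markers, Ptprc and Laptm5, both fell with Sik genes targeted and Ptprc with Lkb1 deleted; the summed level of 8 such markers was 12.4 to 33.6 CPM in KT and at most 2.98 CPM elsewhere. Without KT replicates 2 and 3 the ciliated count was 2 of 10 with Sik genes targeted and 0 of 10 with Lkb1 deleted, and the macrophage counts were 4 and 1 of 10. Genes of these lists that were near 0 outside KT passed the low-count filter through KT. A fall was close to the only outcome open to them, so these counts describe levels only. The part of ciliated cells, macrophages and leukocytes in the levels of the members was not tested.

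AT2 markers fell in 7 of 12 genes with Sik genes targeted (median log2 change -2.14) and in 0 of 12 with Lkb1 deleted (median -0.76). None was at 0 in any group. Among all tested genes 6.56% fell with Sik genes targeted and 0.552% with Lkb1 deleted. The sum of the AT2 markers stayed high, from 29485 to 103064 CPM in KT, from 16372 to 42813 in Lkb1-deleted and from 10643 to 33727 in Sik-targeted. Lyz2, lysozyme, fell by 4.83 with Sik genes targeted (edgeR adjusted p = 0.00426), and Cxcl15, a chemokine of the lung epithelium, had a log2 change of -3.43 (adjusted p = 0.0046). Etv5 and Lpcat1 had smaller log2 changes, of -2.11 (edgeR adjusted p = 0.00351) and -2.16 (adjusted p = 0.00789). The part of macrophages in the Lyz2 level was not tested. The AT2 count was 4 of 12 with Sik genes targeted when KT replicates 2 and 3 were left out. AT1 markers, of the flat cells of the alveolus, fell in 2 of 9 genes with Sik genes targeted, Rtkn2 and Cav1, and in 0 of 9 with Lkb1 deleted. Fibroblast markers fell in 2 of 5 genes with Sik genes targeted, Col3a1 and Pdgfra, and in 0 of 5 with Lkb1 deleted, and 0 of 5 endothelial markers passed in either comparison. The AT1 count with Sik genes targeted was 0 of 9 and the fibroblast count 0 of 5 when KT replicates 2 and 3 were left out. With Lkb1-deleted replicate 1 left out, 2 of 5 endothelial markers rose with Lkb1 deleted (median log2 change 2.04).

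Of 7 tested markers of goblet and mucous cells, the other main secretory cells of the airway, 3 rose and 0 fell with Sik genes targeted (median log2 change 1.65). Negative log2 changes were seen in 3 of 7. Among all tested genes 5.81% rose and 51.9% had negative log2 changes with Sik genes targeted. Tff1, a trefoil peptide, rose from 1.15 ± 0.848 CPM in KT (SD, n = 4) to 668 ± 522 (n = 5), with an edgeR adjusted p of 0.0069. The mucins Muc5b and Muc5ac rose by 5.79 and 3.72 (edgeR adjusted p = 0.0458 and 0.0499). The summed level of the list was 35.8 to 207 CPM in KT and 695 to 10429 CPM in the Sik-targeted libraries. With Lkb1 deleted 0 of 7 passed, with a summed level of 29.0 to 11571 CPM; Lkb1-deleted replicate 1, the library with 2.07 CPM of Cbr2, held the highest of these sums. The median log2 change of the list with Lkb1 deleted was 1.16, and -1.04 without that library. The basal keratin Krt14 rose by 4.12 with Sik genes targeted (edgeR adjusted p = 0.0297), the 1 basal marker of 2 tested that passed there; 0 of 2 passed with Lkb1 deleted. No goblet or basal marker passed without KT replicates 2 and 3, where 98 genes of the whole table passed with Sik genes targeted and 3 with Lkb1 deleted.

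**Figure D4:**
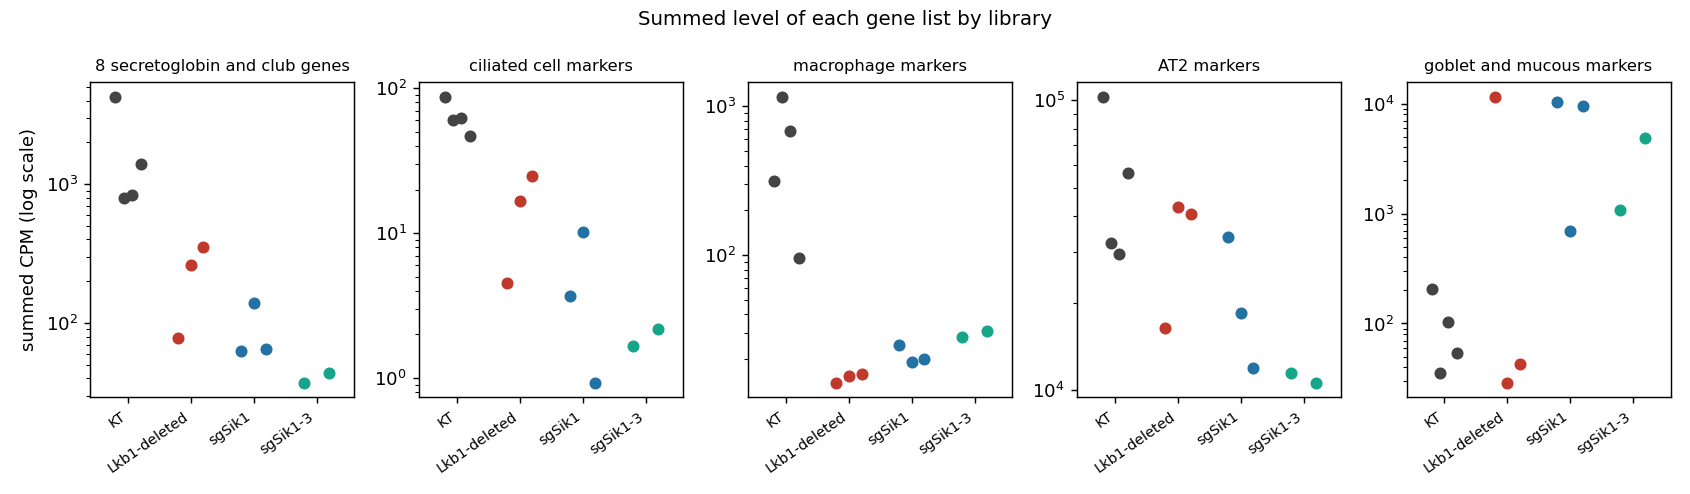
Summed level in CPM (vertical axes, log scale) of the 8 genes and of 4 marker lists, by group (horizontal axes); each point is 1 library. The 8 genes sum to between 789 and 4270 CPM in KT and between 37.3 and 356 CPM elsewhere; ciliated and macrophage sums are also lower in every altered library, and 1 Lkb1-deleted library stands with the Sik-targeted libraries in the goblet list.

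The profiles of the members over the 12 libraries were not all alike. Likeness was measured as the root mean square difference of centred log2 CPM profiles against 13840 other genes, which describes these libraries and their shared depth and scaling. Scgb3a2 was the nearest of all genes to Scgb1a1 (0.97), followed by Lyz1 (1.00) and Dnahc5 (1.13), where Scgb1a1 itself had an SD of 2.99 over the libraries. The nearest to Scgb3a2 were Spata18 (0.70), Dnahc5 (0.81) and Wdr52 (0.93), and those to Scgb3a1 were Hnmt (1.10), Acoxl (1.11) and Hc (1.12). Cbr2 was nearest to Cox6a2 (0.78), to Sftpc, the surfactant protein of AT2 cells (0.98), and to Npr2 (1.01), and the distance from Cbr2 to Scgb1a1 was 2.71 (rank 4486). For Ces1d the nearest were Zfp385b (0.59), its family member Ces1e (0.72) and Slc6a20a (0.73). Cyp2f2 was nearest to H2-DMb1 (0.49), Tacc1 (0.56) and Etv5 (0.58), and Aldh1a1 to Hebp1 (0.30), Inpp4b (0.39) and Prps2 (0.48). The distance between Cyp2f2 and Aldh1a1 was 0.91, which is rank 474 from Cyp2f2 and rank 646 from Aldh1a1. These 2 genes had SDs of 1.26 and 1.31 over the libraries. Gstm2 was nearest to Ebpl (0.55), Bckdhb (0.62) and Ostc (0.62), and its distance to each of the 7 other members was at least 1.36.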

How the data were processed

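Sorted tumour cells gave RNA that was amplified with the Ovation kit before sequencing, per the labels' protocols. The deposited values are whole-number counts per gene symbol made by the authors, in 1 table of 12 libraries; per the submitters' processing notes, STAR 2.4.2a, HTSeq and mm10 were used. The annotation used and whether counting was stranded are not given in the sources. Amplified reads are not independent molecules, so counting bounds cover counting error only. Within groups, libraries differed by a chi-square of at least 15.1 per degree of freedom, so none was treated as a duplicate.

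Counts were tested with edgeR 4.0.16 (R 4.3.3): TMM scaling, filterByExpr, a robust quasi-likelihood F test, 2-sided, with p-values adjusted by Benjamini-Hochberg across the genes tested and called under 0.05. A fit of 3 genotype groups (13575 genes) gave the comparisons of Lkb1-deleted, Sik-targeted and KT, and a fit of 4 title groups (15303 genes) those of sgSik1 and sgSik1-3. All 12 libraries entered each fit, since groups are small. The SE is the absolute log2 change over the square root of F. Alternatives were DESeq2 1.42.0, limma-voom (limma 3.58.1), size factors of the DESeq2 type, no filter, other groupings, a replicate block, each library left out in turn, and 2 pairs of libraries left out. Library totals without scaling factors were added after seeing the data. The edgeR step was tested on simulated data. Exon lengths, coordinates and overlaps are from GENCODE M21 (mm10), and promoter windows from RefSeq (GRCm38.p6).

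The members and gene lists were chosen with earlier results of these data known. Named genes are the 8 members, up to 4 tested genes of each list with the smallest p in each comparison with KT, and the 3 genes nearest each member in profile over the libraries, with a prior count of 2; genes listed at 0 and the targets are named where they touch a result.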

Additional observations from a re-analysis of the deposited data

Results flagged for a closer look

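Over 16 pairs of a gene and a genotype group of 4 or 5 libraries (KT and Sik-targeted), the highest and the lowest library were checked for a gap to the others larger than Dixon's 95% limit. Chance alone passes that limit in about 5% of groups only where values are normally distributed. The check used CPM, which is skewed towards high values, so the rate here is not known and can be higher. All flagged libraries were the highest of their group, and the check was not run on the log2 scale. KT replicate 1 was such a library for all 3 secretoglobins, with 2871 CPM of Scgb1a1, 96.9 CPM of Scgb3a1 and 24.4 CPM of Scgb3a2. Its levels of the 5 enzymes were not set apart in this way. In the Sik-targeted group, sgSik1 replicate 2 was such a library for Scgb1a1 (59.8 CPM), Scgb3a1 (5.12 CPM), Scgb3a2 (2.28 CPM) and Ces1d (8.83 CPM). For Scgb3a2 the other Sik-targeted libraries all had 0 counts, so any library with counts would have been flagged. The library sgSik1 replicate 2 also had the highest summed ciliated cell markers of the Sik-targeted libraries, 10.1 CPM. The share of ciliated cells in these levels was not tested.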

How the results depend on the processing

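With Lkb1 deleted, the 2 called members became 7 without a filter on low counts, 1 with the replicate block, 0 without KT replicates 2 and 3, 1 without Lkb1-deleted replicate 1 and sgSik1 replicate 1, and 0 to 3 when 1 library was left out. With Sik genes targeted, the 7 became 4 without KT replicates 2 and 3 and 5 to 7 when 1 library was left out; DESeq2 called 5 and gave no adjusted p for Scgb3a1. For Lkb1-deleted against Sik-targeted, the 0 became 2 with DESeq2, 3 without a filter, 1 without Lkb1-deleted replicate 1 and sgSik1 replicate 1, and 0 to 1 when 1 library was left out. For sgSik1 the 3 became 5 with DESeq2, limma-voom or library totals without scaling factors, 7 without a filter, 0 without KT replicates 2 and 3, and 1 to 5 when 1 library was left out. For sgSik1-3 the 4 became 7 without a filter, 2 with the replicate block, 0 without KT replicates 2 and 3, and 0 to 6 when 1 library was left out. Calls over all genes moved too, so the shifts alone do not set the members apart. DESeq2 called 4.07% of all tested genes with Lkb1 deleted, 18.6% with Sik genes targeted, 9.44% for sgSik1 and 8.47% for sgSik1-3. In edgeR 1.13% fell and 2.71% rose for sgSik1, and 1.15% fell and 1.74% rose for sgSik1-3. Without KT replicates 2 and 3, edgeR called 3 genes with Lkb1 deleted and 98 with Sik genes targeted. Without a filter more genes of the whole table passed with Lkb1 deleted. The cause of the shifts was not tested. No member rose past the threshold against KT in any alternative.

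Without scaling factors the median log2 change of all genes was -0.78 with Lkb1 deleted and -1.06 with Sik genes targeted, and the members stayed negative in both. Gstm2 changed sign. With Sik genes targeted its log2 change was 0.64 with limma-voom, 0.51 with the replicate block, 0.19 without Lkb1-deleted replicate 1 and sgSik1 replicate 1, and -0.42 to 0.43 when 1 library was left out. For sgSik1 the Gstm2 value was -0.48 without scaling factors, -0.68 without KT replicates 2 and 3 and -0.64 to 0.56 when 1 library was left out. For sgSik1-3 it was 0.42 with limma-voom, 0.25 with the block and -0.62 to 0.27 when 1 library was left out. With 1 library left out, the Lkb1-deleted against Sik-targeted differences of Scgb3a1 and Aldh1a1 ran from -1.31 to 2.96 and from -0.0429 to 0.67. Between sgSik1-3 and sgSik1, limma-voom gave 0.55 for Scgb3a1 and 0.21 for Ces1d, and leaving out 1 library gave -6.90 to 4.79 for Scgb3a1, -1.27 to 0.56 for Ces1d and -0.72 to 0.44 for Gstm2.

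The titles share replicate numbers, and nothing in them says that these pair the libraries. Correlations between same-numbered libraries of different groups, across genes, ran from -0.335 to 0.249 in 15 pairs. Of 12 libraries, 3 correlated best with their own number. Deviations of the 2 sgSik1-3 libraries mirror each other, and these values cannot settle whether the numbers pair libraries. Where leaving out a library left sgSik1-3 with 1, that library was assumed to vary like the other groups. Low counts limit Scgb3a1, Scgb3a2 and Gstm2. Scgb3a2 passed the low-count filter through KT, so a fall against KT was close to the only outcome open to it.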
